A study of Mus musculus with 5 samples.

Results

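Germ cell-like cells made from parthenogenetic stem cells (pESC-PGCLC) were compared with those made from biparental female stem cells (ESC-PGCLC), by CG methylation level, region by region. The comparison used every CG region that all 5 libraries of the study listed, 154711 of the 176303 listed by at least 1 library. The regions belong to 8 classes, which the files name as promoters, 5' and 3' UTRs, exons, introns, CpG islands (CGI), shores of islands, and repeats. Levels came from reduced representation bisulfite sequencing, in which genomic DNA is cut with MspI at CCGG sites, so that CpG-rich fragments are read, and treated with bisulfite, which converts unmethylated cytosines.

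All 5 libraries were from C57BL6 mice. pESC-PGCLC came from the parthenogenetic line pESC, and ESC-PGCLC from the line female ESC. Both kinds of stem cell were kept on feeder cells in serum and LIF, and before induction in t2iL medium, with less of the kinase inhibitor PD0325901 than usual, for several passages. They then passed through 46 h of epiblast-like culture with activin A and bFGF and 4 days of floating culture with BMP4, LIF, SCF and EGF, and cells positive for both CD61 and SSEA1 were sorted. The other libraries were pESC and female ESC themselves and primordial germ cells (PGC) taken with SSEA1 beads from fetal gonads at stage E12.5, whose sex the labels do not state. Each group had 1 library, the numbers of lines and cultures behind it are not given, and the files hold levels without read counts. Depth is therefore unknown, and a difference below compares 2 libraries, with no error, test or p-value. RNA was not measured, so the cell type could not be checked against expressed markers.

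A parthenogenetic embryo develops from an egg alone and carries 2 maternal genomes. At imprinted loci a differentially methylated region (DMR) is methylated in the egg or in sperm, and this mark later sets which parental copy is expressed. A biparental cell normally holds a methylated copy and an unmethylated copy of each such region, and primordial germ cells erase these marks as they develop.

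The promoter windows of 7 imprinted genes are shown first, because the islands beside or over them carried either wide gaps between pESC-PGCLC and ESC-PGCLC or, at Igf2r, almost none. Each is the 300 bases around the annotated start from RefSeq (GRCm38.p6), written 5' to 3' on the gene's strand, with CG dinucleotides in capitals. The windows lie at chr17:12741061-12741360 on the + strand (Airn), chr7:143296498-143296797 on the - strand (Kcnq1ot1), chr7:6730370-6730669 on the - strand (Peg3), chr11:22971755-22972054 on the + strand (Zrsr1), chr6:58907077-58907376 on the - strand (Nap1l5), chr10:13090582-13090881 on the + strand (Plagl1) and chr17:12769657-12769956 on the - strand (Igf2r).
Airn: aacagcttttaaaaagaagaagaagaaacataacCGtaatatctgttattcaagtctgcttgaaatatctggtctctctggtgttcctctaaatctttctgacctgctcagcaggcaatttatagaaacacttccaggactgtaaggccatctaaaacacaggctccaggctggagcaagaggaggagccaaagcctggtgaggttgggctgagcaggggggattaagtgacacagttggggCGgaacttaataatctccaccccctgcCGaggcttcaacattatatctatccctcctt
Kcnq1ot1: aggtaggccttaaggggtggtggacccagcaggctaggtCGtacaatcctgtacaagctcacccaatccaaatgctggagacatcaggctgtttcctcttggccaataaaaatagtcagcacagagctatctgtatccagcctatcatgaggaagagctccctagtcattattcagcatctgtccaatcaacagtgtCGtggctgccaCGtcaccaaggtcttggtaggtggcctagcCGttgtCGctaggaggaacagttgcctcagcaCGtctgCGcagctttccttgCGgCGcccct
Peg3: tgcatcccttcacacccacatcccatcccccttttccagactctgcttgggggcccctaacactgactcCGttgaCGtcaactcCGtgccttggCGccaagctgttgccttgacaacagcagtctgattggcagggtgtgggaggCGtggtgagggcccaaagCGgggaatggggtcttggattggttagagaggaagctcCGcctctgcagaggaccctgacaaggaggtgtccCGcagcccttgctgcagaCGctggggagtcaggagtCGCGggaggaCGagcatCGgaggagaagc
Zrsr1: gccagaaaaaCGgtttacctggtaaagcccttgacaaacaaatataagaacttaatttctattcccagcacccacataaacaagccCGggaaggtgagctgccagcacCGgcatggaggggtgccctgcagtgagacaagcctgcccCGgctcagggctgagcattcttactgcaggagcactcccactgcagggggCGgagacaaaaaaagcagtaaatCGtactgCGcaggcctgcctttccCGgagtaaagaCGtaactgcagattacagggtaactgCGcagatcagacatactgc
Nap1l5: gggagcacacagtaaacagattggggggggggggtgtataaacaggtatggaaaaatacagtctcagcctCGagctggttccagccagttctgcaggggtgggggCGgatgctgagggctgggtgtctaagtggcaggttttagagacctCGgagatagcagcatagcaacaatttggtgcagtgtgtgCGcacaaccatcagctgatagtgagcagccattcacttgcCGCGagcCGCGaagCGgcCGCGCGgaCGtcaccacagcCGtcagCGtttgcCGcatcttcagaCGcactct
Plagl1: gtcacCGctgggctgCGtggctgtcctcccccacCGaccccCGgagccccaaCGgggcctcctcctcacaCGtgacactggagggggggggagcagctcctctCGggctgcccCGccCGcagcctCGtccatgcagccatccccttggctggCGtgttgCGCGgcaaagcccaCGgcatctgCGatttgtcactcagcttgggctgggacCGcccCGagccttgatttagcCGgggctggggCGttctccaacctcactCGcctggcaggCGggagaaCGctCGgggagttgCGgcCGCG
Igf2r: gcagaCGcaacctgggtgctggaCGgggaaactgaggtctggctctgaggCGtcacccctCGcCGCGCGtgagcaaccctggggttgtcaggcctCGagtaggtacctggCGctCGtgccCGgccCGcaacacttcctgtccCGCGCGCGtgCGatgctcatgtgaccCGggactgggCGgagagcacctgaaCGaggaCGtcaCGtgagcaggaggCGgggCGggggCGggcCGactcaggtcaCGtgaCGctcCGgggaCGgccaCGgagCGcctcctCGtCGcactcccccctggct

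The windows held 3 CpGs at Airn, 9 at Kcnq1ot1, 13 at Peg3, 10 at Zrsr1, 17 at Nap1l5, 26 at Plagl1 and 34 at Igf2r, against a median of 7 over the 32851 RefSeq windows of the same length. The annotated start lay inside the measured island at Zrsr1, Nap1l5, Plagl1 and Igf2r. It lay 129 bp from the island at Airn, 21 bp at Peg3 and 723 bp at Kcnq1ot1, and most of the windows at Zrsr1 and Nap1l5 also fell outside the island. The levels given below for these 5 genes therefore belong to the island and not to most of the letters shown, while the windows at Plagl1 and Igf2r lay wholly inside theirs. The hexamer TGCCGC, the core of the motif bound by the imprint-protecting zinc finger protein ZFP57, was searched on both strands. It occurred 2 times at Nap1l5 and 1 time at Plagl1 and not in the other 5 windows; of all windows, 11.6% held it, and of the 11378 windows with at least 15 CpGs, 25.1% did. The MspI site CCGG was present in 3 of the 7 windows (Zrsr1, Plagl1 and Igf2r) and in 52.8% of all windows.

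Over the regions compared, class means were slightly lower in pESC-PGCLC than in ESC-PGCLC. The mean level was 3.59% in pESC-PGCLC and 3.67% in ESC-PGCLC over 14214 CpG islands, and 14.6% in pESC-PGCLC and 15.4% in ESC-PGCLC over 20388 promoters. Repeats, the most methylated class, averaged 43.2% in pESC-PGCLC and 45.3% in ESC-PGCLC over 46641 entries. The mean difference was negative in all 8 classes, between -2.10 points in repeats and -0.0795 points in islands. Taken as a ratio, the pESC-PGCLC mean was between 94.2% (exons) and 97.8% (islands) of the ESC-PGCLC mean. The direction was widespread in repeats, introns and 3' UTRs, where 66.2%, 66.9% and 61.8% of entries were lower in pESC-PGCLC, and almost even in islands (50.8%) and shores (51.5%). The same order held in the stem cells, with a mean over repeats of 46.3% in pESC and 50.2% in female ESC, and PGC was below both induced libraries, at 40.8%.

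How far apart the libraries stood depended on how methylated the region was. Regions were sorted by their mean level in pESC, female ESC and PGC, which take no part in the difference. In islands of at most 5% the median difference was 0.00 points (n = 13018), with 49.8% lower in pESC-PGCLC. In islands between 20% and 40% it was -2.10 points (n = 253), and between 40% and 60% it was -4.10 points (n = 153), with 75.2% lower. In the islands between 60% and 80%, 83.8% were lower and the median was -3.78 points (n = 117). Promoters behaved alike, with medians of 0.00 points in the lowest bin, -3.20 points between 40% and 60% and -1.31 points above 80%. 5' UTRs between 60% and 80% had a median of -5.07 points, and repeats between 40% and 60% one of -2.28 points. 3' UTRs between 5% and 20% stood the other way, with a median of 0.50 points.

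**Figure D1:**
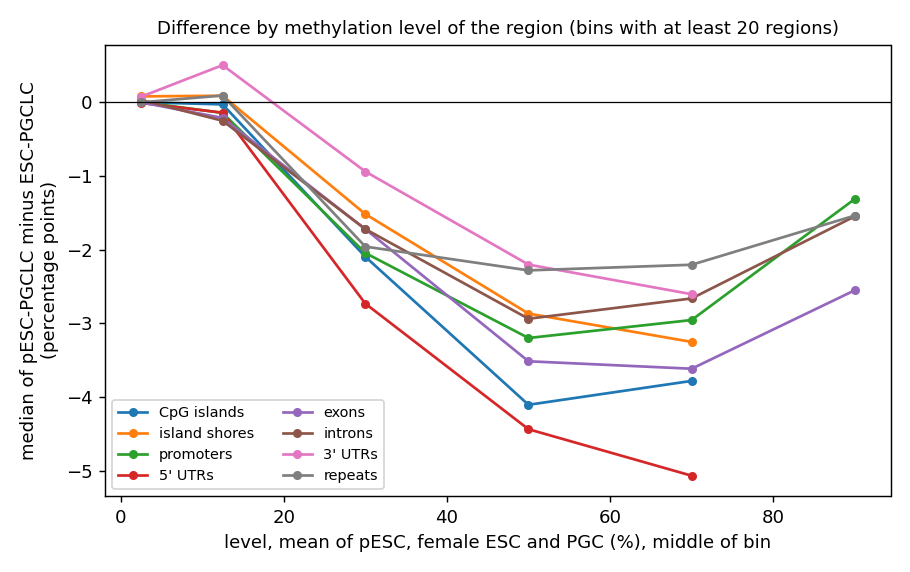
Median of pESC-PGCLC minus ESC-PGCLC in percentage points (vertical axis) against the middle of the methylation bin, set by the mean level in pESC, female ESC and PGC in percent (horizontal axis), with 1 line per region class and 1 library per group. The lines start near 0 in unmethylated regions and pass below it from 20% on, to -4.10 points for islands and -2.28 points for repeats between 40% and 60%.

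Against this small general deficit, the islands that stood far apart all stood higher in pESC-PGCLC. A gap of 25 points was used as the call. Of 14214 islands, 12 passed it with the higher level in pESC-PGCLC (0.0844%) and 0 with the lower one (0%). Among the 12, 11 sat at or inside genes listed with a maternally inherited germline DMR. The share of all islands at such genes is not given, so this count describes the called islands only. Further islands of listed genes, as at Gnas, Grb10, Plagl1 and Nnat, were not called. Over the 12 islands the median level was 50.3% in pESC-PGCLC, against 12.7% in ESC-PGCLC, with 57.2% in pESC, 19.3% in female ESC and 42.9% in PGC. Levels in pESC-PGCLC ran from 34.3% to 75.02%, and those in ESC-PGCLC from 1.03% to 33.0%. In the stem cells they ran from 39.1% to 77.8% in pESC and from 1.60% to 36.9% in female ESC. Female ESC, though biparental, was thus at every called island below the 50% of a methylated and an unmethylated copy. The islands were called by the gap between the induced libraries. The cause of the low levels, the number of methylated copies included, was not tested. Above a level of 50% were 6 of the 12 islands in pESC-PGCLC, 0 in ESC-PGCLC and 5 in PGC. PGC lay between the induced libraries at 12 of 12. The direction depended on the size of the gap: at 10 points, 27 islands were higher and 51 lower in pESC-PGCLC. Among islands listed by both induced libraries, whatever the other 3 listed, 3 were at least 25 points lower.

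Airn, a noncoding RNA that silences Igf2r in cis from an intron of that gene, had the widest gap. Its island, chr17:12741440-12742489 (mm10), was at 62.1% in pESC-PGCLC and 1.03% in ESC-PGCLC, with 61.2% in pESC, 2.01% in female ESC and 52.1% in PGC. The methylated group thus holds both parthenogenetic libraries and PGC, and both biparental cultured libraries are near 0. The second island of the locus, chr17:12769058-12770009 over the Igf2r promoter shown above, was at 1.71% in pESC-PGCLC and 0.974% in ESC-PGCLC, and between 0.795% and 3.20% in the other 3. Within one transcription unit the gap was therefore 61.0 points at the Airn start and 0.739 points at the Igf2r start.

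Kcnq1ot1, the antisense RNA that silences genes of the Kcnq1 domain, had its island (chr7:143295404-143295824) at 75.02% in pESC-PGCLC and 20.5% in ESC-PGCLC, with 67.7% in pESC, 16.7% in female ESC and 61.7% in PGC. Here both induced libraries were above the stem cells they came from. A shore that contains this island was nearly the same, at 74.3% in pESC-PGCLC and 20.7% in ESC-PGCLC. The shore on its other side, chr7:143293403-143295403, did not share the gap, with 40% in pESC-PGCLC and 37.5% in ESC-PGCLC.

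Peg3 and Usp29, a zinc finger gene and a deubiquitinase gene read from a shared start region, had an island of 337 bp, chr7:6730062-6730398. It was at 58.8% in pESC-PGCLC and 12.2% in ESC-PGCLC, with 65.7% in pESC, 36.2% in female ESC and 50.3% in PGC. The ESC-PGCLC library was the lowest of the 5 here and stood well below female ESC. At Nap1l5, an intronless gene inside Herc3, the island chr6:58906723-58907147 was at 53.4% in pESC-PGCLC and 14.5% in ESC-PGCLC, with 56.1% in pESC, 22.8% in female ESC and 46.0% in PGC. Its shore was at 43.9% in pESC-PGCLC and 11.5% in ESC-PGCLC.

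Zrsr1, an intronless gene for a splicing factor-related protein inside Commd1, was methylated over a long stretch. The main island, chr11:22971974-22972993, was at 43.0% in pESC-PGCLC and 1.61% in ESC-PGCLC, with 41.0% in pESC, 1.60% in female ESC and 35.1% in PGC. All 4 shores of the locus were called, with gaps between 29.5 and 44.3 points. The second, 216 bp island (chr11:22973116-22973331), at 21.5% in pESC-PGCLC and 1.76% in ESC-PGCLC, stayed under the call with 19.8 points. These shores overlap one another and the islands, so they are not separate measurements.

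At Gnas, which encodes the stimulatory G protein alpha subunit and several overlapping transcripts, 2 of 4 islands were called. The island chr2:174298463-174300644 was at 56.0% in pESC-PGCLC and 13.2% in ESC-PGCLC, with 58.4% in pESC, 19.7% in female ESC and 51.5% in PGC. Its 271 bp neighbour, chr2:174297262-174297532, was at 44.7% in pESC-PGCLC and 10.6% in ESC-PGCLC, with 64.4% in pESC, 18.9% in female ESC and 37.3% in PGC. The other islands of the locus were nearly unmethylated in both libraries, with 3.25% in pESC-PGCLC and 2.63% in ESC-PGCLC at chr2:174284647-174285390, and 4.04% in pESC-PGCLC and 2.37% in ESC-PGCLC at chr2:174327293-174331145. The gap was thus restricted, among the 4 measured islands, to the middle of the locus. The shore at the start of Gnasas1, the antisense RNA, was at 21.1% in pESC-PGCLC and 6.18% in ESC-PGCLC, with 40.9% in pESC, 17.8% in female ESC and 6.78% in PGC, which is 1 of the imprinted regions where PGC sat with ESC-PGCLC.

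Peg13, a noncoding RNA gene inside Trappc9, had the highest ESC-PGCLC level of the 12 islands. At chr15:72809537-72810123 it was at 74.2% in pESC-PGCLC and 33.0% in ESC-PGCLC, with 77.8% in pESC, 36.9% in female ESC and 63.2% in PGC. The island over the start of Peg10, a placental gene of retrotransposon origin, and beside Sgce, which encodes epsilon-sarcoglycan, was the lowest in pESC-PGCLC. At chr6:4747208-4748412 it was at 34.3% in pESC-PGCLC and 3.22% in ESC-PGCLC, with 39.1% in pESC, 3.25% in female ESC and 33.1% in PGC. An island inside Inpp5f, a phosphoinositide phosphatase gene, at chr7:128687969-128688582, was at 41.8% in pESC-PGCLC and 16.7% in ESC-PGCLC, with 48.6% in pESC, 26.1% in female ESC and 35.2% in PGC. It passed the call narrowly, with 25.1 points, and the island at the start of the same gene went the other way, with 8.94% in pESC-PGCLC and 16.1% in ESC-PGCLC.

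The island inside Impact, a translational regulator gene on chromosome 18, from 12973116 to 12974420, was at 47.1% in pESC-PGCLC and 21.0% in ESC-PGCLC, with 49.4% in pESC, 18.96% in female ESC and 39.8% in PGC. The only called island away from the listed imprinted genes was inside Mid1, a ubiquitin ligase gene at the end of the X chromosome (chrX:169986832-169987790). It was at 38.2% in pESC-PGCLC and 11.3% in ESC-PGCLC, with 46.8% in pESC, 25.7% in female ESC and 35.8% in PGC. Part of Mid1 lies in the pseudoautosomal region of the mouse, which X and Y share.

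**Figure D2:**
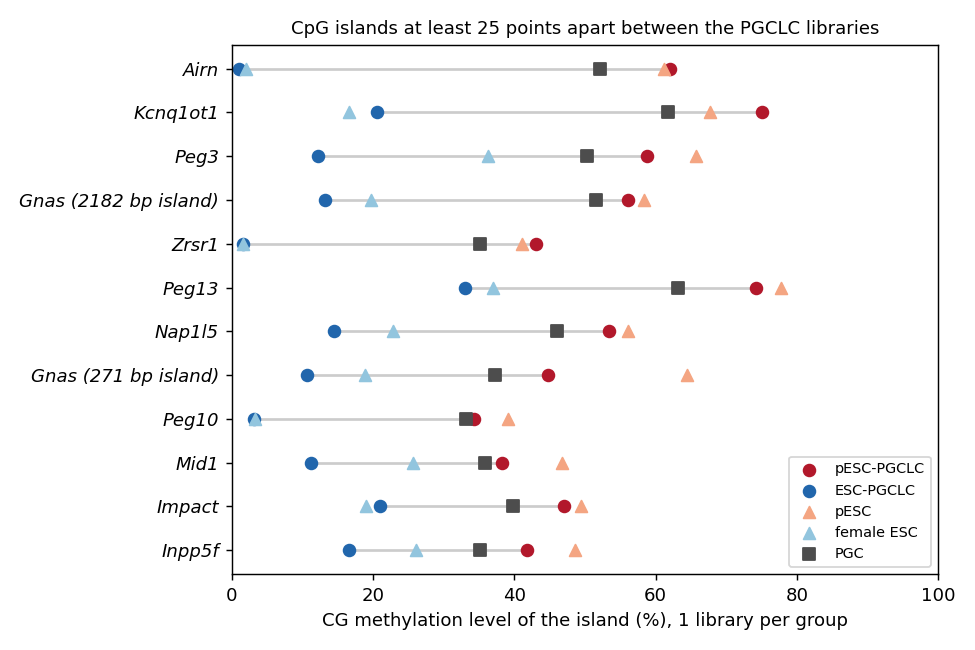
CG methylation level in percent (horizontal axis) of each of the 12 islands at least 25 points apart, 1 row per island and 1 point per library, with a grey line joining pESC-PGCLC and ESC-PGCLC. The pESC-PGCLC points lie between 34.3% and 75.02% and the ESC-PGCLC points between 1.03% and 33.0%, with PGC between them in every row.

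The libraries of the parent lines were apart at the same islands. All 12 had a higher level in pESC than in female ESC, 10 of them by at least 25 points, while over all islands 41.8% had. These stem cell libraries are separate from the induced ones. Relative to the parent line, pESC-PGCLC was above pESC at 3 of the 12 (Airn, Kcnq1ot1 and Zrsr1), and ESC-PGCLC was below female ESC at 9 of the 12. Non-CpG levels at these islands were low in both libraries, from 0% to 1.23% in pESC-PGCLC and 0.488% to 1.15% in ESC-PGCLC in the CHH context.

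Just under the call, 6 islands were 15 to 25 points higher in pESC-PGCLC and 10 were that much lower. Among the higher were islands of 2 further maternal DMR genes. Grb10, a growth-restraining adaptor gene, had its inner island (chr11:12025554-12026580) at 22.6% in pESC-PGCLC and 1.87% in ESC-PGCLC, with 20.5% in pESC, 1.74% in female ESC and 19.9% in PGC. Plagl1, a zinc finger gene whose start overlaps Hymai, had chr10:13090532-13091299 at 22.7% in pESC-PGCLC and 2.47% in ESC-PGCLC, with 28.7% in pESC, 1.35% in female ESC and 24.8% in PGC. At both islands pESC-PGCLC, pESC and PGC were well above ESC-PGCLC and female ESC, though at Plagl1 PGC was also above pESC-PGCLC. None of the 10 lower islands lay at a listed maternal DMR gene, and 7 of the 10 were shorter than 400 bp. The widest was a 296 bp island in Gm6194, chr3:8462763-8463058, at 26.8% in pESC-PGCLC and 50.7% in ESC-PGCLC, with 41.9% in pESC, 44.1% in female ESC and 36.4% in PGC. An island inside Lrrc8d, a volume-regulated channel subunit gene (chr5:105731943-105732434), was at 7.28% in pESC-PGCLC and 26.8% in ESC-PGCLC, with 10.6% in pESC, 29.2% in female ESC and 6.40% in PGC. Female ESC and ESC-PGCLC were thus the high libraries there. PGC, which came from fetal gonads and not from a parthenogenetic line, was the lowest of all.

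**Figure D3:**
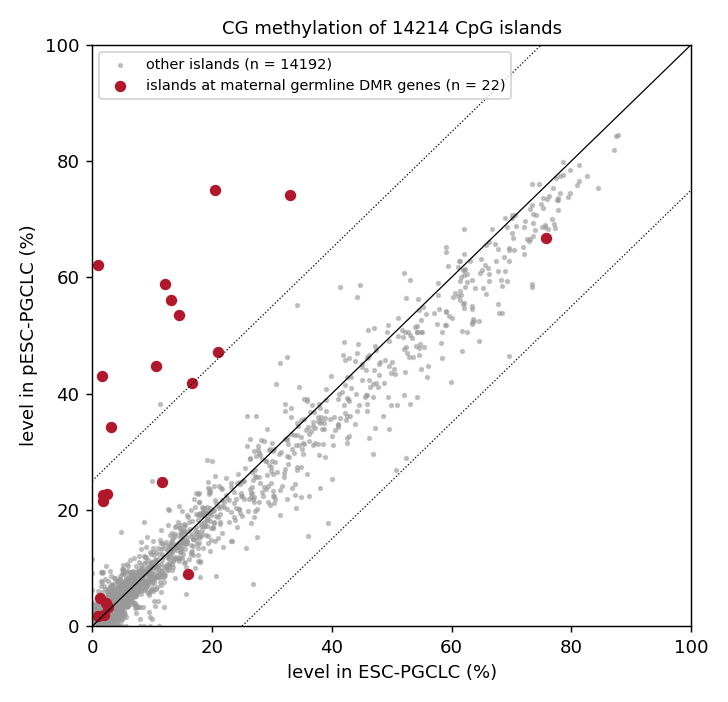
Level of each of 14214 CpG islands in pESC-PGCLC (vertical axis, percent) against ESC-PGCLC (horizontal axis, percent), 1 point per island, with islands at maternal germline DMR genes in red, a solid line of equality and dotted lines 25 points from it. The points beyond the upper dotted line are the 12 called islands, 11 of them red, and no point lies beyond the lower one.

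The full list of maternal germline DMR genes held 21 genes, 17 of which had an island or shore at a gene end. Of these 17 genes, on 16 regions, 13 were higher and 4 lower in pESC-PGCLC, and 8 were at least 25 points higher. Their median level was 34.3% in pESC-PGCLC and 6.18% in ESC-PGCLC. The median difference was 20.3 points, against -0.00731 points over all islands. Nnat, a neuronal proteolipid gene, was at 24.8% in pESC-PGCLC and 11.7% in ESC-PGCLC, with 25.5% in pESC, 15.1% in female ESC and 19.9% in PGC. Mcts2, an intronless gene inside H13, was low everywhere, at 4.90% in pESC-PGCLC, 1.39% in ESC-PGCLC, 6.14% in pESC, 1.53% in female ESC and 9.22% in PGC. Mest, a hydrolase-fold gene, had no region at a gene end, but had an inner shore (chr6:30738499-30740500) within 1000 bp of an annotated Mest transcription start. This shore was at 48.4% in pESC-PGCLC and 4.12% in ESC-PGCLC, with 53.7% in pESC, 6.59% in female ESC and 36.9% in PGC. Impact was likewise measured inside the gene only, as given above, and Snrpn and Nespas were given no island or shore. Promoter, UTR, exon and intron entries carry Ensembl IDs without symbols. Whether these genes were measured there could not be looked up.

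The 4 lower genes were Slc38a4, Grb10, Inpp5f and Cdh15. For Grb10 and Inpp5f the region at the gene end is another island than the inner one described above, at 1.93% in pESC-PGCLC and 2.03% in ESC-PGCLC for Grb10. Slc38a4, an amino acid transporter gene, had a shore at 4.11% in pESC-PGCLC and 7.33% in ESC-PGCLC. Cdh15, which encodes M-cadherin, was highly methylated in all libraries, its shore chr8:122865178-122867179 at 61.5% in pESC-PGCLC and 69.4% in ESC-PGCLC, with 73.5% in pESC, 75.1% in female ESC and 59.5% in PGC.

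By the gene rules used here, regions methylated in sperm could hardly be compared. Of 5 listed genes, H19, Meg3 and Zdbf2 had no region by the rule used, which takes either end of the gene. By annotated transcription starts, Zdbf2 had an island at 1.98% in pESC-PGCLC and 1.51% in ESC-PGCLC. Dlk1 was at 2.12% in pESC-PGCLC and 1.57% in ESC-PGCLC, and Rasgrf1 at 2.14% in pESC-PGCLC and 2.13% in ESC-PGCLC, which are islands at the genes themselves and were unmethylated in both. The called lower shore chr9:89877672-89879672 overlapped no RefSeq gene and lay on the same chromosome as the Rasgrf1 island, chr9:89908631-89911157. It was at 21.7% in pESC-PGCLC and 47.6% in ESC-PGCLC, with 38.7% in pESC, 57.9% in female ESC and 27.9% in PGC. Whether this shore belongs to the Rasgrf1 locus was not tested. Of 43 other genes of imprinted domains, 29 were measured, 16 higher and 13 lower, with a median difference of 0.0321 points. The 1 gene of these at least 25 points higher was Usp29, through the Peg3 island. Among the rest, the largest shifts were at a shore of Igf2, the fetal growth factor gene, with 18.01% in pESC-PGCLC and 22.8% in ESC-PGCLC, at Jade1, with 2.70% in pESC-PGCLC and 0.391% in ESC-PGCLC, and at Ndn, with 4.20% in pESC-PGCLC and 1.91% in ESC-PGCLC. With regions taken at transcription starts, 2 of these genes were at least 25 points higher, Usp29 and Commd1. Commd1 was then measured through the Zrsr1 island, at 43.0% in pESC-PGCLC and 1.61% in ESC-PGCLC.

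Island shores repeated much of the island result and added regions in both directions. Of 16696 shores, 19 were called higher in pESC-PGCLC (0.114%) and 11 lower (0.0659%). Of the 19 higher shores, 12 lay at listed maternal genes and 10 overlapped a called island. Of the 11 lower shores, 0 lay at a listed maternal gene, and other gene lists were not searched. The share of all shores at listed maternal genes is not given, so these counts describe the called shores only. In the stem cells 16 of the 19 higher shores stood higher in pESC than in its biparental counterpart, 13 of them by at least 25 points, but of the 11 lower shores only 5 were lower in pESC, and 0 by at least 25 points. Over all shores, 37.9% were higher and 61.2% lower in pESC.

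The shores outside the maternal DMR list did not keep one order of libraries. At Crocc, a ciliary rootlet gene, the shore was at 45.5% in pESC-PGCLC and 6.25% in ESC-PGCLC, with 43.5% in pESC, 0% in female ESC and 50.0% in PGC, so that the parthenogenetic libraries and PGC were high, with PGC highest of the 5. At Speg, a striated muscle kinase gene, it was at 63.6% in pESC-PGCLC and 27.6% in ESC-PGCLC, with 11.1% in pESC and 66.7% in female ESC, which is the opposite order in the parent lines. At Lmtk2, a membrane kinase gene, it was at 48.5% in pESC-PGCLC and 21.2% in ESC-PGCLC, with 19.7% in pESC and 0% in both female ESC and PGC. Lower in pESC-PGCLC were shores at Gipc3, a hearing gene, with 22.5% in pESC-PGCLC and 58.7% in ESC-PGCLC, and at Csnk1e, a clock kinase gene, with 30.4% in pESC-PGCLC and 64.6% in ESC-PGCLC. Wipf1, an actin regulator gene, had 6.29% in pESC-PGCLC and 32.6% in ESC-PGCLC, with 1.12% in female ESC, so that ESC-PGCLC alone was high among the 5, whose remaining values were 17.3% in pESC and 12.7% in PGC. Levels of exactly 0% or 100%, in any of the 5 libraries, occurred at 3 of the 19 higher and 2 of the 11 lower shores.

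Gene-based classes were called in both directions. Of 20388 promoters, 25 were at least 25 points higher in pESC-PGCLC (0.123%) and 23 lower (0.113%). Of 11654 5' UTRs, 7 were higher (0.0601%) and 2 lower (0.0172%), and of 20707 exon entries, 16 were higher (0.0773%) and 27 lower (0.13%). Of 19966 intron entries, 15 were higher (0.0751%) and 17 lower (0.0851%), and of 4445 3' UTRs, 11 were higher (0.247%) and 13 lower (0.292%). These entries carry Ensembl gene IDs that the reference paired with 0 symbols, so the genes are not named.

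The called entries were also set against the islands and shores and across gene classes. Of the 25 higher promoters, 7 carried the same 5 levels, to 7 decimals, as a CpG island or shore, and of the 23 lower promoters, 0 did. Among the 7 were the islands of Peg3, Peg10 and Inpp5f and the shore of Peg13. The Peg3 island was matched by more than a single promoter ID, so that the 25 held 24 distinct sets of levels. The 74 higher entries of the 5 gene classes belonged to 58 gene IDs, 10 of which were called in at least 2 classes and 4 in at least 3. The 82 lower entries belonged to 77 IDs, 5 of which were called in at least 2 classes and 0 in at least 3. The matching shares over all promoters and all gene IDs were not counted. These counts therefore describe the called entries only. The widest promoters by ID were ENSMUSG00000099073, at 68.2% in pESC-PGCLC and 11.3% in ESC-PGCLC, with 80.1% in pESC, 11.8% in female ESC and 67.2% in PGC, and ENSMUSG00000102252, at 83.6% in pESC-PGCLC and 32.0% in ESC-PGCLC, with 82.7% in pESC, 34.4% in female ESC and 70.4% in PGC. Both have the library order of the imprinted islands.

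The same entries were also read in the stem cell libraries. Of the 25 higher promoters, 21 also had the higher level in pESC and 17 by at least 25 points, while 39.7% of all promoters were higher in pESC. Of the 23 lower promoters, 17 were lower in pESC and 1 by at least 25 points, while 60.1% of all promoters were lower. Of the exon entries, 12 of 16 higher (9 by at least 25 points) and 17 of 27 lower (7 by at least 25 points) kept their direction, against 38.1% and 61.7% of all exons. For introns 10 of 15 higher (8 by at least 25 points) and 14 of 17 lower (0 by at least 25 points) did, against 36.6% and 63.3%. For 3' UTRs it was 8 of 11 higher and 9 of 13 lower, 2 of each by at least 25 points, against 21.2% and 78.5%. The median of the 23 lower promoters was 23.8% in pESC-PGCLC and 50.0% in ESC-PGCLC, with 40.6% in pESC, 51.4% in female ESC and 32.4% in PGC.

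Of the germ cell gene lists, the testis genes, a list of testis genes with methylated islands, were mostly lower in pESC-PGCLC. The meiosis and piRNA lists were mixed and hold many islands that were nearly unmethylated in both libraries. Some germline gene islands are methylated outside the germ line and lose this late in primordial germ cells, and the listed genes serve meiosis, transposon silencing and sperm formation. Of 18 measured meiosis genes, 11 were lower and 7 higher, with a median level of 10.9% in pESC-PGCLC and 15.0% in ESC-PGCLC and a median difference of -1.92 points. Of 12 measured piRNA and germ granule genes, 7 were lower and 5 higher, with a median difference of -0.254 points. Of 11 measured testis genes, 10 were lower and 1 higher, with median levels of 21.4% in pESC-PGCLC and 27.9% in ESC-PGCLC and a median difference of -6.51 points. For scale, islands of any gene between 20% and 40% had a median of -2.10 points with 69.2% lower, and those between 40% and 60% one of -4.10 points with 75.2% lower. Most methylated islands were thus lower whatever the gene, and the testis genes were listed for methylated islands. Their count is therefore not read as a trait of testis genes. With islands only, the meiosis median was -0.286 points and the piRNA median 0.0599 points, so that these lists gave no clear direction.

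Stra8, which licenses meiotic entry, had a shore at 39.2% in pESC-PGCLC and 52.4% in ESC-PGCLC, with 42.2% in pESC, 49.9% in female ESC and 41.4% in PGC. Sycp1, a synaptonemal complex protein gene, had an island at 21.8% in pESC-PGCLC and 32.5% in ESC-PGCLC, with 28.3% in pESC, 31.9% in female ESC and 23.2% in PGC. Mael, a piRNA pathway gene also on the meiosis list, was at 21.8% in pESC-PGCLC and 30.4% in ESC-PGCLC, with 22.5% in pESC, 31.0% in female ESC and 22.9% in PGC. At these 3 genes, named for their large differences, pESC-PGCLC lay closer to PGC than ESC-PGCLC did. The same held for the mean level of every region class, so it is not particular to these genes. Hormad1, a meiotic chromosome axis gene, was at 10.1% in pESC-PGCLC and 15.7% in ESC-PGCLC. PGC was at 13.8% there, closer to ESC-PGCLC.

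Among the Tudor domain genes of the germ granule, the shore of Tdrd12 was at 44.2% in pESC-PGCLC and 56.8% in ESC-PGCLC, with 56.8% in pESC, 68.1% in female ESC and 51.8% in PGC. The shore of Tdrd6 was at 12.3% in pESC-PGCLC and 22.4% in ESC-PGCLC, while Tdrd1 was higher, at 57.6% in pESC-PGCLC and 54.3% in ESC-PGCLC. Mov10l1, a helicase gene of piRNA production, had a shore at 53.3% in pESC-PGCLC and 63.2% in ESC-PGCLC, with 49.1% in PGC. The Tudor genes thus differed in direction. Of the testis genes, Tuba3a, a testis tubulin gene, was at 32.3% in pESC-PGCLC and 42.5% in ESC-PGCLC, with 37.1% in pESC, 47.3% in female ESC and 30.6% in PGC, and Dpep3, a membrane dipeptidase gene, was at 59.3% in pESC-PGCLC and 69.2% in ESC-PGCLC, with 69.4% in pESC, 74.5% in female ESC and 54.4% in PGC. Slc25a31, a sperm ADP/ATP carrier gene, was at 32.8% in pESC-PGCLC and 40.05% in ESC-PGCLC.

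For the genes that mark the cell types the sorts could hold, median differences per list were under 1 point, while single shores and islands differed by several points. Of 7 measured PGC specification genes, 3 were higher and 4 lower (median -0.379 points), with the germ cell RNA-binding gene Dazl at 17.98% in pESC-PGCLC and 22.9% in ESC-PGCLC, and Fut4, the SSEA1-forming fucosyltransferase gene, at 15.2% in pESC-PGCLC and 13.5% in ESC-PGCLC. Itgb3, which encodes CD61, was at 1.96% in pESC-PGCLC and 1.50% in ESC-PGCLC. The medians were 0.135 points over 10 pluripotency genes, -0.0740 points over 11 primed epiblast genes, 0.169 points over 13 mesoderm and endoderm genes, -0.0660 points over 6 trophoblast genes and -0.0851 points over 7 fibroblast genes, of which feeder cells would be a source. Over 11 gonadal somatic genes the median was 0.0969 points, with the shores of Nr5a1, a gonadal nuclear receptor gene, at 64.0% in pESC-PGCLC and 70.2% in ESC-PGCLC, and of Tcf21 at 40.6% in pESC-PGCLC and 35.04% in ESC-PGCLC. Of 10 genes that write, read or erase DNA methylation, 8 were higher (median 0.266 points), and the only one to differ by more than 1 point was the Dnmt3l shore, at a gene whose product assists de novo methylation, at 30.3% in pESC-PGCLC and 24.9% in ESC-PGCLC. Of 13 listed X-linked Rhox homeobox genes, 3 were measured, with Rhox13 at 21.4% in pESC-PGCLC and 27.9% in ESC-PGCLC and Rhox9 at 7.45% in pESC-PGCLC and 4.99% in ESC-PGCLC.

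**Figure D4:**
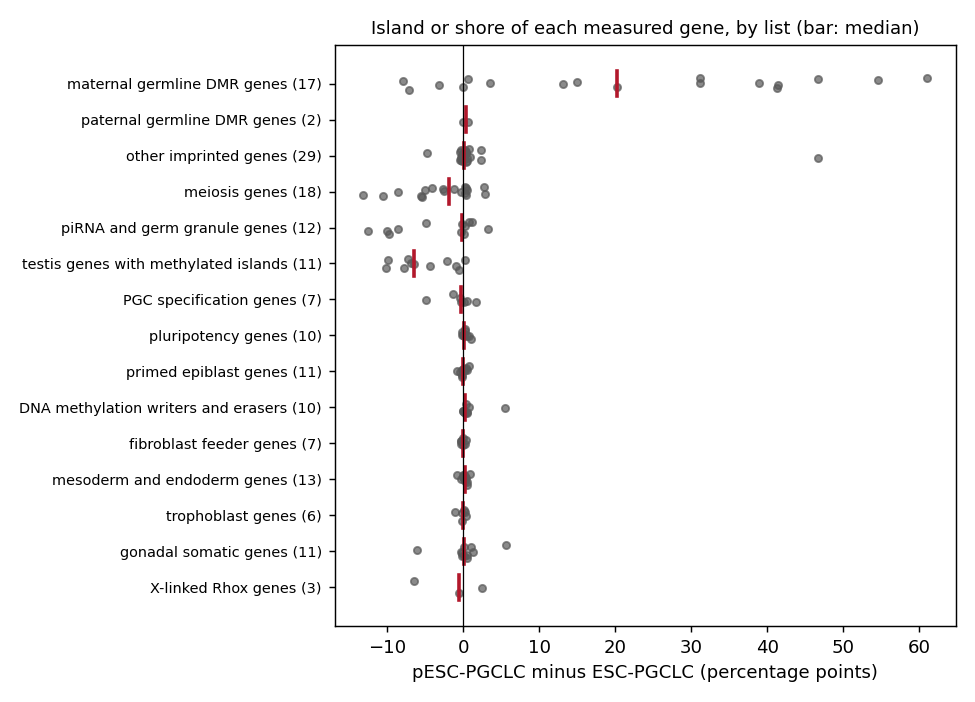
Difference between pESC-PGCLC and ESC-PGCLC in percentage points (horizontal axis) for the island or shore of every measured gene, 1 row per gene list with the number of measured genes in brackets, 1 point per gene and a red bar at the list's median. The maternal germline DMR genes reach 61.0 points with a median of 20.3, and the testis genes with methylated islands have a median of -6.51 points.

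Repeats were lower in pESC-PGCLC in nearly every family. Of 293 families with at least 20 entries, 286 had a median below 0 and 7 above it, and the middle family stood at -2.14 points. All 29 repeat classes with at least 20 entries had a median below 0, from -5.88 to -0.974 points. LINE/L1 elements, retrotransposons that encode their own copying machinery, averaged 48.1% in pESC-PGCLC and 49.9% in ESC-PGCLC over 21176 entries, with a median difference of -1.68 points. LTR/ERVK elements, which descend from retroviruses, averaged 47.5% in pESC-PGCLC and 49.9% in ESC-PGCLC, with a median difference of -2.25 points. SINE/Alu entries, which are the mouse B1 elements, had the smaller median difference of -1.15 points over 3013 entries.

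L1 subfamilies of the mouse-specific L1Md group differed in size of the median difference. A, Tf and Gf are the young ones, which hold the copies still able to move, and F is older. L1MdTf had a median level of 48.2% in pESC-PGCLC and 51.3% in ESC-PGCLC, with 53.9% in pESC, 58.5% in female ESC and 46.3% in PGC, and a median difference of -3.08 points (n = 1232). L1MdA had 47.9% in pESC-PGCLC and 49.4% in ESC-PGCLC, with a median difference of -1.26 points (n = 6391). L1MdGf had 53.0% in pESC-PGCLC and 55.6% in ESC-PGCLC, with a median difference of -2.33 points (n = 984), and the older L1MdF one of -1.51 points (n = 7366). IAP elements, retroviral repeats that resist germline demethylation, had a median level of 67.9% in pESC-PGCLC and 69.7% in ESC-PGCLC, with 70.7% in pESC, 74.0% in female ESC and 65.4% in PGC. MERVL, a retrovirus active in early embryos, had a larger median difference than the other groups named here, with 44.2% in pESC-PGCLC and 47.8% in ESC-PGCLC, a median difference of -4.53 points and 81.6% of its 49 entries lower. Major satellite, the pericentromeric repeat, had 7 entries with medians of 74.6% in pESC-PGCLC and 72.6% in ESC-PGCLC, 4 of the 7 lower.

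Single families ranged from L1MA7, with a median difference of -6.20 points (n = 21), and MERVL_2A-int, with -5.60 points (n = 29), to RMER30, an hAT transposon family, with 2.02 points (n = 23). The 7 families above 0 held at most 48 entries each, and ORR1C2, with a median of 0.52 points, had a mean of -2.20 points. Of 46641 repeat entries, 214 were at least 25 points higher (0.459%) and 384 at least 25 points lower (0.823%). In the stem cells, 80 of the 214 higher entries were also higher in pESC, where 22.9% of all repeat entries were, and 252 of the 384 lower entries were also lower, where 76.6% were. Spread fell with the length of consensus an entry covered, from an SD over entries of 8.75 points in the shortest group to 4.96 points in the longest. In that longest group, 7 of 7563 were at least 25 points higher and 19 lower. Read depth per entry is unknown, and its part in this spread was not tested.

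The X chromosome stood apart from the autosomes by a small difference. Its 363 islands had a median level of 1.84% in pESC-PGCLC and 1.62% in ESC-PGCLC, with 1.47% in pESC, 1.58% in female ESC and 2.24% in PGC. The median difference was 0.172 points, and 61.7% were higher in pESC-PGCLC. On the 19 autosomes the median difference ran from -0.0295 to 0.0368 points and the share higher from 46.9% to 53.9%. In islands of at most 5%, 62.5% of 328 on the X and 49.9% of 12688 on autosomes were higher. In islands above 5%, 54.3% of 35 on the X and 38.1% of 1157 on autosomes were higher, with median differences of 0.375 and -0.710 points. Islands at either level were thus more often higher on the X than on autosomes. In the CHH context, where X islands had a median difference of -0.0162 points, the X lay inside the autosomal range of -0.0491 to -0.0156 points. X shores, in the CG context, were near even, with 51.2% higher and a median difference of 0.0328 points. Both values were just above those of the autosomal shores, at 44.4% to 50.5% and -0.185 to 0.00896 points. In a female cell one X is inactivated with methylation of many of its islands, and both X chromosomes are active in mouse embryonic stem cells. The numbers of X chromosomes and the state of inactivation were not measured.

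**Figure D5:**
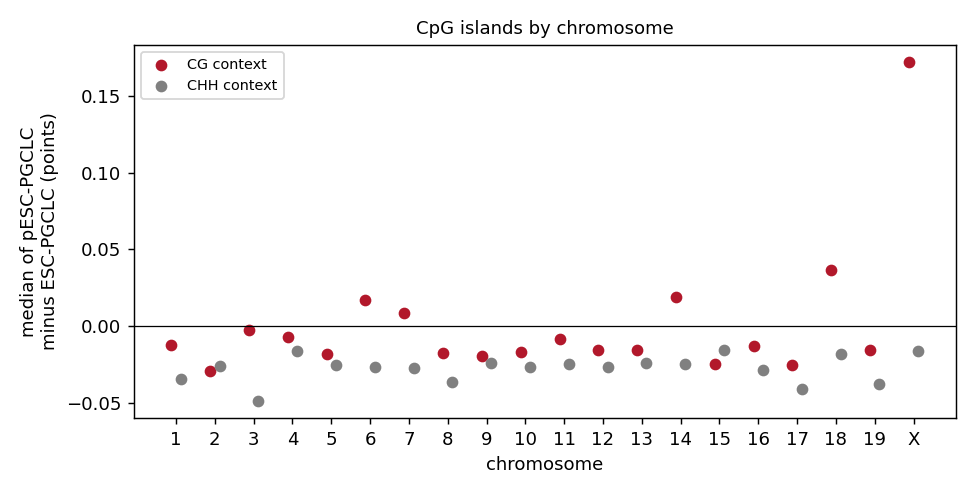
Median of pESC-PGCLC minus ESC-PGCLC over CpG islands in percentage points (vertical axis) for each autosome and the X (horizontal axis), in the CG context (red) and the CHH context (grey). The X is at 0.172 points in the CG context, with the autosomes between -0.0295 and 0.0368 points, and is among the autosomes in the CHH context.

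Islands mapped to the Y chromosome, 2 in number, were listed in all 5 libraries, female ESC included. That at chrY:90740952-90744975, over Gm52481, was at 55.3% in pESC-PGCLC and 34.1% in ESC-PGCLC, with 60.9% in pESC, 45.6% in female ESC and 58.7% in PGC. That at chrY:90825140-90829322 was at 46.2% in pESC-PGCLC and 32.5% in ESC-PGCLC, with 71.9% in pESC, 72.2% in female ESC and 56.3% in PGC. Both lie near the end of the Y, where the region shared with the X is found, and the chromosome from which their reads came cannot be told apart here.

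Outside the CG context the libraries were close. Mean CHH levels, which include unconverted cytosines, ran over the 8 classes from 0.708% to 0.756% in pESC-PGCLC and from 0.732% to 0.780% in ESC-PGCLC. Mean CHG levels ran from 0.792% to 1.03% in pESC-PGCLC and from 0.826% to 1.06% in ESC-PGCLC. Non-CpG rows at least 25 points apart numbered 2, both CHG repeats. Without the 12 called islands, the 511 islands with a mean level between 20% and 80% had differences from -23.9 to 21.1 points, with an SD over islands of 5.56 points and a median of -3.19 points.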

How the data were processed

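Genomic DNA of 5 mouse libraries, 1 per group, was read by reduced representation bisulfite sequencing. Per the submitters' processing notes, Bismark 0.16.3, Bowtie2 and mm10 were used, with roles not stated. The deposited values are a methylation fraction per region and cytosine context, printed here as percent. The sources used here do not give how regions were drawn, the coverage filter or the counting base of coordinates, and depth is unknown, so no interval could be given.

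CG rows listed by all 5 libraries were kept, and the level of ESC-PGCLC was subtracted from that of pESC-PGCLC. A region was called at 25 points or more, with no test. A gene was given the longest island, or else the longest shore, within 1000 bp of either RefSeq gene end. Named genes were all measured imprinted members, called islands with a symbol and up to 4 members of each list with the largest difference; shores and 2 promoter IDs were named after their values were seen. The 15 gene lists and all members were chosen with earlier results of these data known. Promoters carry Ensembl IDs, and 0 matched a symbol. Other thresholds, row sets, lengths and centrings were tried. Scripts, tested on simulated data, used Python 3.11.15, pandas 2.3.3, numpy 2.4.6 and matplotlib 3.10.9.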

Additional observations from a re-analysis of the deposited data

How the results depend on the processing

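With 1 library per group nothing could be left out, and depth, line and culture cannot be told apart from parental origin. No paired analysis was possible because each group had 1 library. A mean or median was taken to have moved past 1 point, and a count past 1.5 times. The class differences kept their sign in 32 of 32 alternatives and the repeat classes in 27 of 27; the 1-point tolerance is wider than the differences in islands, shores, 5' UTRs and promoters and says nothing about them. As medians, promoters stood at -0.125 points and exons at -0.293. Within the tolerance were 67 of 75 list medians, with 3 changes of sign near 0, and 54 of 100 counts. Counts are given as higher then lower in pESC-PGCLC. Rows listed by both PGCLC libraries gave 3 lower islands, 33 and 29 shores, 44 and 48 promoters, 4 lower 5' UTRs, 31 and 65 exons, 34 and 33 introns, 21 and 25 3' UTRs, and 476 and 726 repeats. A threshold of 10 points gave 27 and 51 islands, 113 and 239 shores, 113 and 472 promoters, 26 and 113 5' UTRs, 136 and 591 exons, 109 and 391 introns, 75 and 221 3' UTRs, and 1513 and 4017 repeats, so more islands were then lower than higher. A threshold of 40 points left 6 higher islands, 8 and 2 shores, 9 and 1 promoters, 3 and 0 5' UTRs, 10 and 3 exons, 4 and 4 introns, 2 and 1 3' UTRs, and 60 and 91 repeats. With the ratio of class means taken out, 1 5' UTR was lower. The maternal DMR median became 31.1 points with islands only, and its mean was 22.3. The mean was 1.65 points for other imprinted genes, carried by Usp29, -3.43 for piRNA genes and -5.14 for testis genes, whose median was -5.47 over rows of both PGCLC libraries. Meiosis genes with islands only had a median of -0.286 points. With regions at transcription starts, an alternative chosen after seeing the data, Rhox genes stood at -6.51 points. The cause of these moves was not tested.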
